A study of Mus musculus with 10 samples.

Results

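The genes of the mitochondrial respiratory chain and ATP synthase were followed across 5 cell populations of the mouse paw pad. The members were all genes on the array whose symbol begins with Nduf, Sdh (Sdha to Sdhd), Uqcr, Cox4 to Cox8 or Atp5, together with Cyc1 and Cycs. Each gene was read from 1 probe set that carries its symbol alone, the one with the highest mean over 10 arrays. The rule found 86 members among 12393 genes: 33 for complex I, 4 for complex II, 10 for complex III and cytochrome c, 16 for complex IV, 17 for ATP synthase and 6 assembly or regulatory factors. All 86 passed the filter on low values that left 9310 genes for testing.

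Electrons from NADH enter the chain at complex I and those from succinate at complex II. They pass through complex III, cytochrome c and complex IV to oxygen, and ATP synthase uses the proton gradient built on the way. Most subunits are encoded in the nucleus, as all members here are, and a few subunits of complex IV have alternative isoforms that are known from heart and skeletal muscle or from testis. Secretion and reabsorption of sweat run on ion pumps that consume ATP.

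The sweat duct gave basal and suprabasal cells, the gland coil gave luminal and myoepithelial cells, and palmoplantar epidermis was the fifth population. All came from wild-type females of the CD1 background and were separated by FACS, and no treatment is named for any of them. Each population has 2 arrays called biological replicates, with no statement of how many animals stood behind an array or which markers defined a sort. P-values therefore measure only the spread between these arrays, and their small number limits the precision of every estimate.

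Marker transcripts followed the labels: the summed signal of Krt5 and Krt14 was highest in duct basal cells, that of Acta2, Myh11 and Cnn1 in myoepithelial cells, that of Krt8, Krt18, Krt19 and Aqp5 in luminal cells and that of Krt1, Krt10 and Lor in epidermis. Duct suprabasal cells were the least sharply marked, since Scnn1b and Scnn1g summed to 1441 and 1071 there and to 914 and 1226 in luminal cells. Their arrays also differed most from each other, with a correlation of 0.907 across tested genes against 0.963 to 0.981 in the other populations. The summed signal of 8 fibroblast genes was 16784 and 88296 on these arrays, 32749 and 44356 in myoepithelial, 27627 and 22076 in duct basal and 2308 and 6546 in luminal cells, and 1176 and 1478 in epidermis. That of 8 endothelial genes was 6120 and 27010 on the duct suprabasal arrays and no more than 1310 elsewhere. On myoepithelial arrays 1 and 2 the luminal keratin and Aqp5 sum was 17055 and 7787. The median signal of all probe sets was 65.1 and 66.8 on the epidermis arrays and 91.9 to 119 on the others. In sorted bulk samples, fewer cells of a type and less RNA per cell cannot be told apart.

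The promoters of 5 members are shown because they bracket the patterns described here: Sdha, low in epidermis; Sdhd, low in myoepithelial cells; Atp5g2, from the ATP synthase ring; Uqcrfs1, high in luminal cells and epidermis; and Cox7a1, an alternative isoform with the widest range of all members. Each line gives the 150 bases before the transcription start, 5′ to 3′ on the gene's strand, from RefSeq with build GRCm38.p6. Capitals mark matches to the palindromic core of nuclear respiratory factor 1 (NRF1) sites with 1 free letter, to CCGGAAG, a core of ETS family sites, and to TGACGTCA, the cyclic AMP response element (CRE), searched on both strands.
Sdha: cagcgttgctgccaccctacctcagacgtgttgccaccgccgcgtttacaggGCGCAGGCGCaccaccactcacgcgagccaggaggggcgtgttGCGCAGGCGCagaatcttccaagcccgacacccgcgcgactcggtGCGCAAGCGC
Sdhd: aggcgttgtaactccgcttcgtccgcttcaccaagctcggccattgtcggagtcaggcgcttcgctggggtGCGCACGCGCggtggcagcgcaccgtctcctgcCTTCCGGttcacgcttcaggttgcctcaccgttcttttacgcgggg
Atp5g2: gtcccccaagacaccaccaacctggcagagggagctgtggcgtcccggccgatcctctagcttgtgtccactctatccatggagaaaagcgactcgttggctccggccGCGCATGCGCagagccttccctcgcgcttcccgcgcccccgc
Uqcrfs1: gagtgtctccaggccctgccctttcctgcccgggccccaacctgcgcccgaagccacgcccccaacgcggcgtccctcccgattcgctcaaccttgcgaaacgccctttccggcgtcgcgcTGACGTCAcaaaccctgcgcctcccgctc
Cox7a1: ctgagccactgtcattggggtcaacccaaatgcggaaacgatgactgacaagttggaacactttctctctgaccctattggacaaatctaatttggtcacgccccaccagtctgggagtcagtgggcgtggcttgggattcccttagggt
The Sdha window lies at chr13:74350241-74350390 on the minus strand and holds 3 NRF1 matches. The Sdhd window, at chr9:50603850-50603999 on the minus strand, holds 1 NRF1 match and 1 ETS match read on the opposite strand. The Atp5g2 window, at chr15:102671048-102671197 on the minus strand, holds an NRF1 match that reads on both strands, and the Uqcrfs1 window, at chr13:30545317-30545466 on the minus strand, holds the CRE palindrome. The Cox7a1 window, at chr7:30184021-30184170 on the plus strand, has none of these letters.

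Of the 86 members, 71 had a promoter in the RefSeq table, taken from 250 bases before to 50 after the start. The NRF1 core was in 16 of 71 member promoters (22.5%) and in 11.6% of the 7515 promoters of tested genes. YY1 letters (AANATGGC) were in 16 (22.5%) against 9.87%, ETS letters in 18 (25.4%) against 20%, those of estrogen-related receptors (ERR, AAGGTCA) in 7 (9.86%) against 3.94%, and CRE letters in 4 (5.63%) against 3.51%. These are counts of letters in fixed windows, some of which can overlap, and not of bound sites.

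The median level of the members was highest in epidermis, next in luminal and duct basal cells, and lowest in duct suprabasal and myoepithelial cells. The median of log2(signal + 12) over the 86 members was 13.08 and 13.09 on the epidermis arrays, 12.66 and 12.99 in luminal, 12.53 and 12.77 in duct basal, 12.28 and 12.42 in duct suprabasal, and 12.21 and 12.33 in myoepithelial cells. The epidermis arrays lay above all others, the luminal and duct basal arrays overlapped, and so did the duct suprabasal and myoepithelial arrays. Over all genes tested the median ran the other way, 7.99 and 7.95 in epidermis against 8.25 to 8.51 elsewhere.

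Epidermis had the highest mean for 51 members (59.3%, against 22.5% of all genes tested) and luminal cells for 18 (20.9%, against 22%). Myoepithelial cells had the lowest mean for 53 members (61.6%, against 18.6%), and duct suprabasal cells had the next lowest mean for 44 (51.2%, against 20%). Both ends coincided, epidermis highest and myoepithelial cells lowest, in 38 members (44.2%, against 8.83% of all genes tested), so fewer than 1 in 2 members shared that order. These ranks are given for the deposited scaling only, and the excess in epidermis was smaller with quantile normalization, as given below. In the limma F test over 5 populations 55 of 86 members varied at an adjusted p under 0.05 (64.0%), a share near the 65.8% of all genes tested. Without epidermis array 1 or 2 the F test called 32 or 30 members, and without myoepithelial array 1 it called 36. Array 2 was the brighter for 79 of 86 members in luminal cells, 69 in duct basal and 66 in myoepithelial cells, by a median log2 ratio of 0.32, 0.24 and 0.20, and for 50 in each of the others. Of all genes, 46.8% were brighter on array 2 in luminal, 42.9% in duct basal and 46.9% in myoepithelial cells, with medians of -0.029, -0.082 and -0.03.

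**Figure D1:**
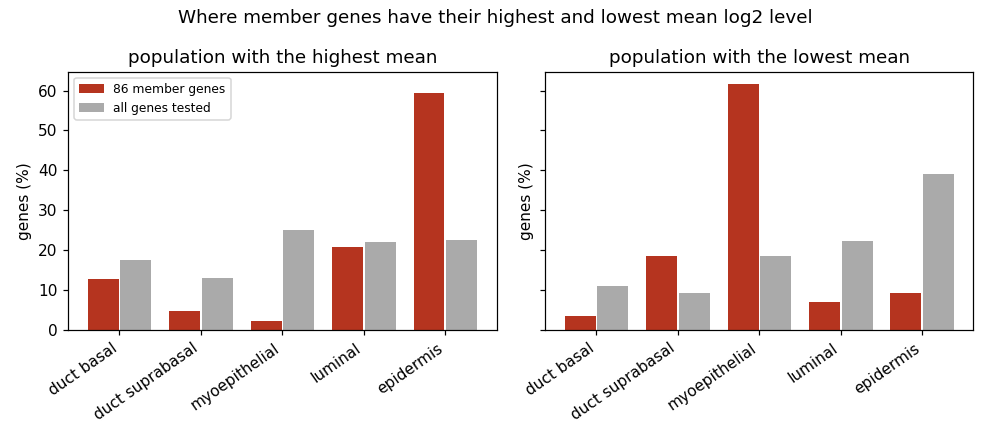
Share of genes (percent) that have their highest (left) or lowest (right) mean log2 level in each population, for the 86 members and for all 9310 genes tested. Members peak in epidermis for 59.3% and are lowest in myoepithelial cells for 61.6%, on the deposited scaling.

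**Figure D2:**
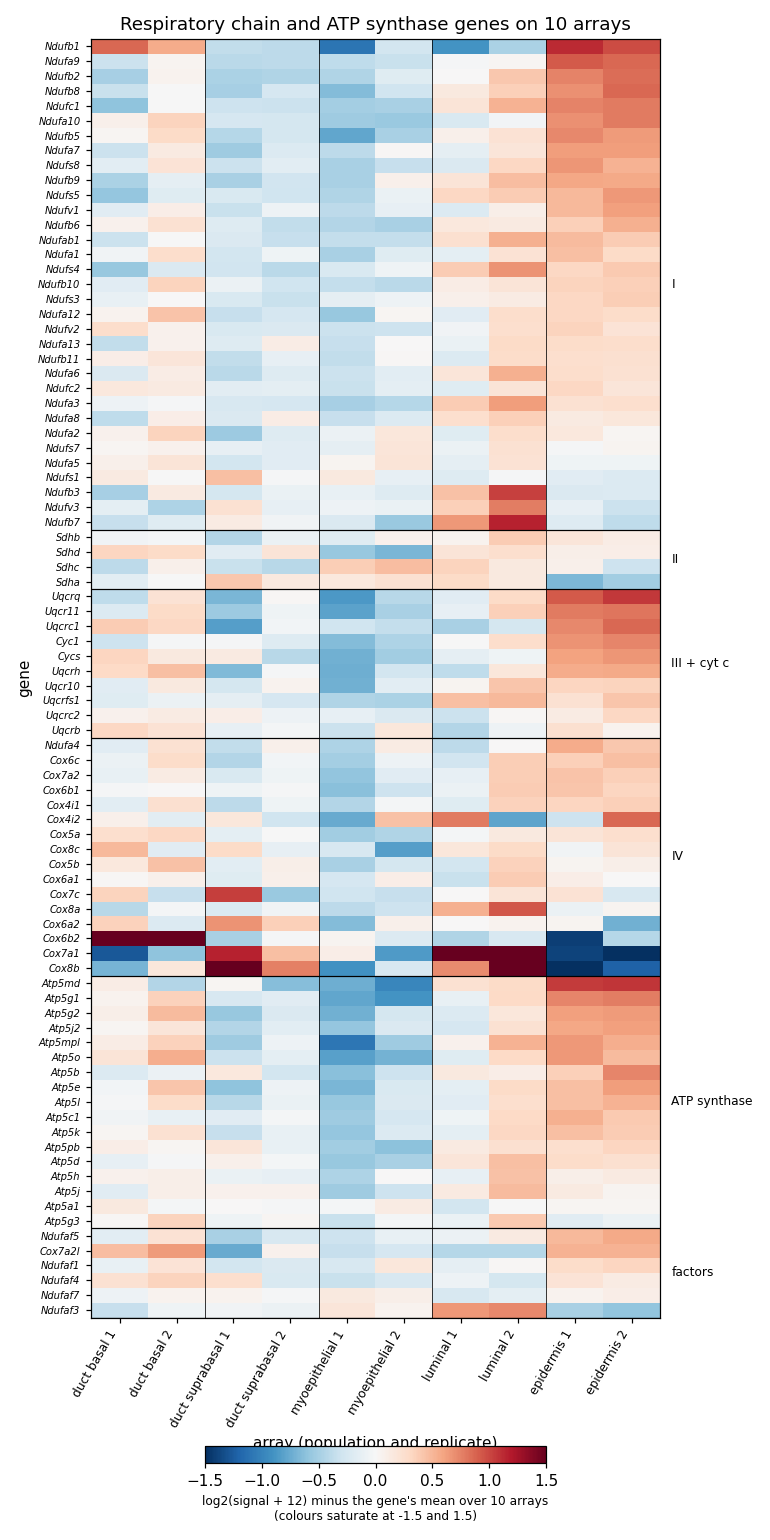
Level of every member on each of the 10 arrays, as log2(signal + 12) minus the gene's mean over the arrays, ordered by complex and, within it, by the epidermis mean. The epidermis columns are red for most rows of complexes I and III and of ATP synthase, with Sdha, Ndufb7, Ndufaf3, Cox6b2, Cox7a1 and Cox8b among the blue ones.

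Epidermis was compared with the mean of the 4 sweat populations to describe what sets it apart. Many genes of complex I, complex III with cytochrome c and ATP synthase had higher signals in epidermis. Signals were lower for Sdha, the flavoprotein subunit of complex II, the assembly factor gene Ndufaf3 and the complex IV isoforms Cox7a1 and Cox8b. Every array is scaled to the same trimmed mean, so these are relative levels and not amounts per cell. In all 46 members passed (53.5%, against 52.6% of all genes), 41 higher and 5 lower, while 19.2% of all genes tested were higher and 33.4% lower. The fifth lower call, on Cox6b2, concerns a transcript that was dim outside duct basal cells. The median log2 difference of members was 0.41 and that of all genes -0.25. With quantile normalization, which gives all arrays 1 distribution, the split was 28 higher and 10 lower, with medians of 0.24 for members and 0.08 for all genes. With arrays centred on their medians it was 64 higher and 2 lower. Centring raises every gene of epidermis, whose array medians were lowest, against the sweat populations. The split of all genes under these alternatives is not given here. Without epidermis array 1 or 2, 21 or 20 members passed.

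Complex I contributed 18 of its 33 members, all higher in epidermis. Ndufa9, an accessory subunit at the junction of the membrane and peripheral arms, gave 6121 and 5891 in epidermis, 3203 and 3314 in luminal, 2594 and 3324 in duct basal, 2486 and 2566 in myoepithelial, and 2445 and 2468 in duct suprabasal cells. Both epidermis arrays lay far above the 8 others, and the log2 difference was 1.11 (SE 0.13, limma adjusted p = 0.000154). Ndufb1, a small membrane arm subunit, read 443 and 400 in epidermis, 369 and 296 in duct basal and 86 to 162 on the 6 remaining arrays, so that duct basal cells were the only sweat population near the epidermal level (1.31, SE 0.25, adjusted p = 0.00202). Ndufc1, another membrane arm subunit, was 5648 and 8548 in duct basal, 14400 and 14729 in epidermis and 9787 and 12278 in luminal cells (0.96, SE 0.17, adjusted p = 0.00157). Ndufb5 passed with a log2 difference of 0.85 (SE 0.14, adjusted p = 0.00105). The calls of these 4 genes held whichever array was left out. Of the core subunits, Ndufs8, Ndufv1 and Ndufs3 passed, by 0.74, 0.69 and 0.42, and Ndufs1, Ndufs7 and Ndufv2 did not; they are named here to complete the class, outside the rule for naming. Ndufs4 (0.44, adjusted p = 0.0332) lost its call without myoepithelial array 1, luminal array 1 or either epidermis array, with an adjusted p of up to 0.191, and another of its probe sets, dimmer, went the other way (-0.79, adjusted p = 0.0415).

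Complex III and cytochrome c had the highest share of calls, 7 of 10, all higher in epidermis. Cyc1, the cytochrome c1 subunit that hands electrons to cytochrome c, gave 7968 and 8296 in epidermis, 5000 and 6020 in luminal, 4025 and 4934 in duct basal, 4936 and 4385 in duct suprabasal and 3186 and 3617 in myoepithelial cells. No other array reached the epidermis pair (0.87, SE 0.15, adjusted p = 0.000988). Uqcrq, a small subunit next to cytochrome b, read 9958 and 10955 in epidermis and 2898 to 6397 on the 8 others (1.24, SE 0.24, adjusted p = 0.00217), a call that ended when its probe sets were averaged. Uqcr11 followed the same order (0.99, SE 0.20, adjusted p = 0.00306). Cycs, the mobile carrier cytochrome c itself, gave 22362 and 23237 in epidermis, 18439 and 16299 in duct basal, 16212 and 11034 in duct suprabasal, 13445 and 14041 in luminal, and 8907 and 10221 in myoepithelial cells. Its difference was 0.79 (SE 0.17, adjusted p = 0.00392), with an adjusted p of 0.0513 without epidermis array 2. Uqcrh (0.71) and the Rieske iron-sulfur protein gene Uqcrfs1 (0.40) passed, and both lost the call without either epidermis array, with an adjusted p of up to 0.127 and 0.213.

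ATP synthase had 11 of 17 members higher in epidermis and none lower. The c-ring that turns in the membrane is encoded by 3 genes for the same mature protein. Atp5g1 gave 6814 and 7013 in epidermis, 4262 and 5216 in duct basal, 3814 and 5040 in luminal, 3487 and 3661 in duct suprabasal, and 2380 and 2204 in myoepithelial cells (0.94, SE 0.15, adjusted p = 0.000782). Atp5g2 followed with 9732 and 9904 in epidermis and 3851 to 8855 elsewhere (0.78, SE 0.19, adjusted p = 0.00687, and up to 0.0659 without 1 epidermis array). Atp5g3 overlapped between populations, with 13090 and 13774 in epidermis against 11679 to 19293 elsewhere, and did not pass. Among the other subunits Atp5md, a small protein that stabilises dimers of the enzyme, was 17388 and 17603 in epidermis and 4243 to 10219 elsewhere (1.33, SE 0.21, adjusted p = 0.000629). The catalytic subunit Atp5b read 10161 and 13203 in epidermis and 5123 to 8861 elsewhere (0.69, SE 0.17, adjusted p = 0.00860, and 0.139 without epidermis array 2). Atp5o (0.70) and Atp5mpl (0.75) also passed, with an adjusted p of up to 0.0873 and 0.104 when an epidermis array was left out.

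**Figure D3:**
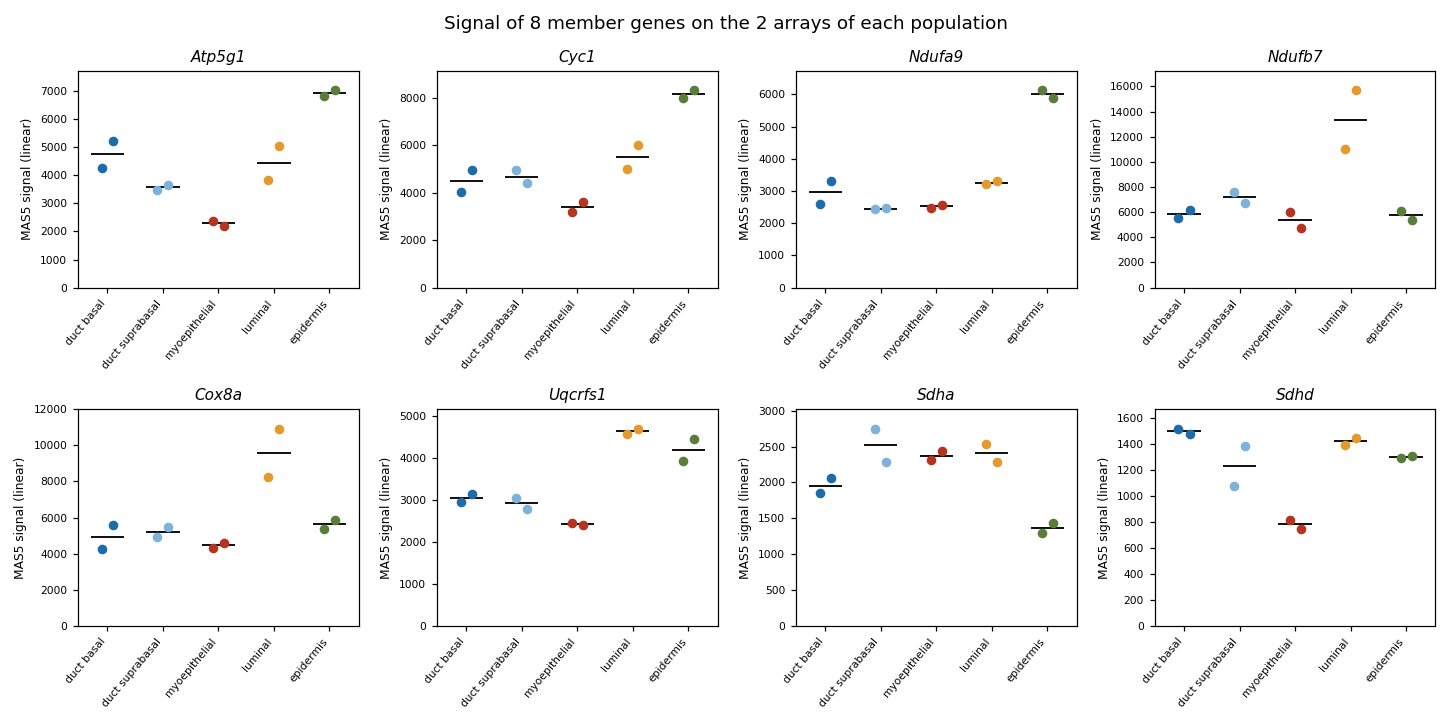
MAS5 signal on a linear scale of 8 members, with the 2 arrays of each population as points and their mean as a line. Atp5g1, Cyc1 and Ndufa9 are highest in epidermis, Ndufb7 and Cox8a in luminal cells, Sdha is lowest in epidermis and Sdhd in myoepithelial cells.

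Complex II is the only complex of the chain that is also an enzyme of the citric acid cycle. Of its 4 members 1 passed between epidermis and the sweat populations, as lower in epidermis. Sdha, its flavoprotein subunit, gave 1294 and 1434 in epidermis, 1848 and 2055 in duct basal, 2308 and 2434 in myoepithelial, 2536 and 2290 in luminal, and 2748 and 2285 in duct suprabasal cells. Both epidermis arrays lay below all 8 others, with a log2 difference of -0.75 (SE 0.14, limma adjusted p = 0.00154) that held whichever array was left out and was no longer called after centring arrays on their medians. Sdhb, the iron-sulfur subunit, ranged from 3034 to 5353 with overlapping arrays and did not pass in any of the 7 comparisons or in the F test. Sdhc, a membrane anchor, was 1931 and 2068 in myoepithelial and 1894 and 1660 in luminal cells, 1140 and 1576 in duct basal and 1181 and 1117 in duct suprabasal cells, and 1582 and 1206 in epidermis. Sdhd, the other anchor, read 816 and 748 in myoepithelial cells and 1080 to 1519 on the 8 other arrays. By rank of means the anchors stood at opposite ends in myoepithelial cells, Sdhc with the highest of the 5 populations and Sdhd with the lowest. In the limma fit Sdhc did not pass there against luminal (0.17, adjusted p = 0.588) or duct basal cells (0.57, adjusted p = 0.0826). Sdhd passed against luminal cells (-0.85, adjusted p = 0.00651).

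Few common subunits of complex IV differed between epidermis and the sweat populations beyond the spread of the arrays. Cox4i1, Cox5a, Cox5b, Cox6a1 and Cox6c are common subunits of cytochrome oxidase; Cox4i1 gave 12412 to 21425, Cox5a 9166 to 16319, Cox5b 12449 to 23664, Cox6a1 18404 to 30256 and Cox6c 11456 to 22337 over the 10 arrays, and none of these 5 passed against epidermis. With quantile normalization Cox5b (-0.29, adjusted p = 0.0391) and Cox6a1 (-0.37, adjusted p = 0.0155) passed as lower in epidermis. Cox6b1 (0.46, adjusted p = 0.0431), Cox7a2 (0.49, adjusted p = 0.0491) and Ndufa4 (0.60, adjusted p = 0.0383), a subunit once placed in complex I, passed as higher. Cox6b1 and Cox7a2 each kept the call in 2 of the 10 fits that left out 1 array and Ndufa4 in 5, with an adjusted p of up to 0.241, 0.239 and 0.223.

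The alternative isoforms Cox7a1, Cox8b and Cox6b2 of complex IV spanned more on the log2 scale than any other member, at dim signals. Cox7a1, the isoform of heart and skeletal muscle, gave 459 and 498 in luminal, 224 and 133 in duct suprabasal, 102 and 47 in myoepithelial and 32 and 58 in duct basal cells, and 29 and 15 in epidermis. Both luminal arrays lay above all others, but the difference from duct suprabasal cells did not pass (1.41, SE 0.44, limma adjusted p = 0.059). The epidermis values lay under the 40th percentile of their arrays, which was 33.6 and 36.1. The F test gave an adjusted p of 0.000437. Cox8b, another isoform of heart and muscle, was 238 and 113 in duct suprabasal and 109 and 275 in luminal cells, 34 and 71 in duct basal, 28 and 50 in myoepithelial cells, and 3 and 20 in epidermis. Its luminal and duct suprabasal arrays overlapped and lay above the 6 others (F test, adjusted p = 0.00617). Against the mean of the sweat populations Cox7a1 and Cox8b were lower in epidermis, by log2 differences of -2.11 and -2.19. The epidermis values of Cox8b also lay under the 40th percentile. Both genes thus passed the filter on low values through sweat arrays only. These differences are therefore given without a test, though both genes remain among the members called. Adding 12 to each signal makes such differences smaller than the ratios of signals.

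Cox6b2, known from testis and sperm, was a duct basal transcript among these populations. It read 166 and 186 in duct basal cells, 51 and 41 in myoepithelial, 32 and 49 in duct suprabasal and 33 and 40 in luminal cells, and 11 and 34 in epidermis. It passed the filter on low values only on the duct basal arrays, so its differences from duct basal cells are given as signals only, with no test. It is nevertheless among the members called in the F test and in the comparisons of duct basal cells with duct suprabasal, myoepithelial and luminal cells and epidermis, and of epidermis with the sweat populations. The remaining members of these families, Cox4i2, Cox6a2 and Cox8c, read 11 to 61, 27 to 90 and 71 to 194 with overlapping arrays. Cox7c is represented here by a dim probe set of 44 to 158. The summed signal of 6 skeletal muscle genes was 109 and 191 in luminal and 116 and 136 in duct suprabasal cells, and 512 and 637 in myoepithelial cells, where Mb was 392 and 471. Of the 6, only Acta1 and Mb passed the filter on low values. The part of muscle cells in the signals of Cox7a1 and Cox8b was not tested. Fat cell genes (Adipoq, Fabp4 and 1 other) summed to 3568 and 23182 on the duct suprabasal arrays and to 200.2 and 848 in luminal cells, and their part in the duct suprabasal signal of Cox8b was not tested. Ionocyte genes (Foxi1, Atp6v1b1 and 1 other) summed to 14858 and 16190 in luminal, 5610 and 2258 in duct suprabasal and 2268 and 314 in myoepithelial cells. They were brighter on array 1 of the last 2 populations, as Cox7a1 was, and their part in its signal was not tested.

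**Figure D4:**
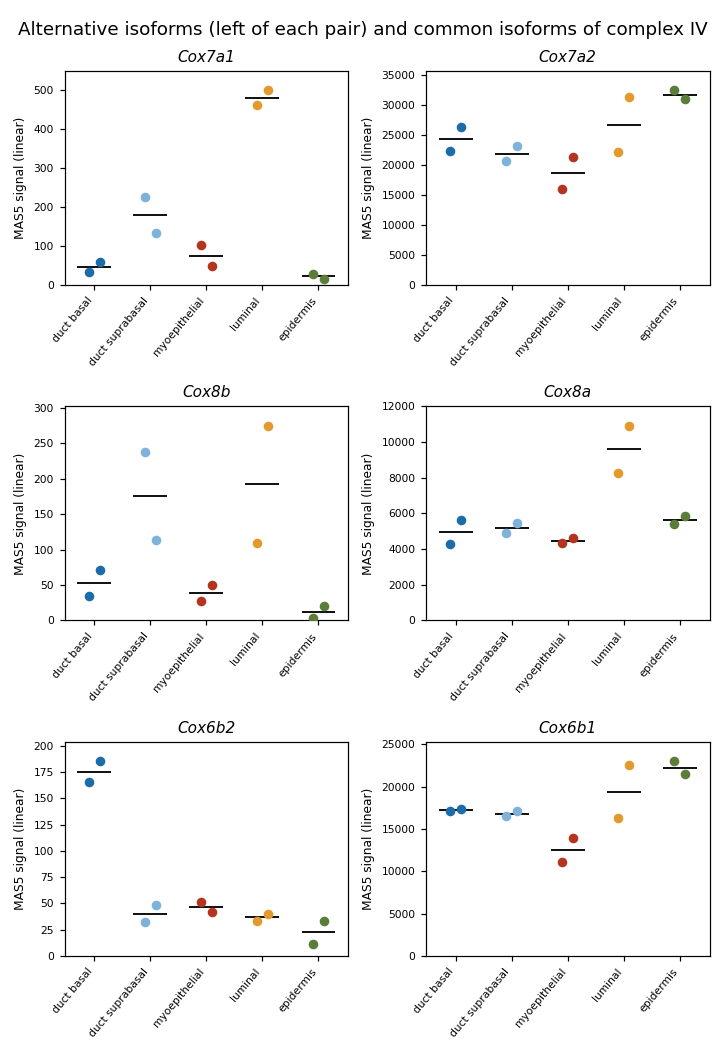
MAS5 signal on a linear scale of alternative (left) and common (right) isoforms of complex IV, each panel with its own axis, since signals of different probe sets cannot be compared. Points are the 2 arrays of each population and lines their means; Cox7a1 is highest in luminal cells at 459 and 498 and Cox6b2 in duct basal cells at 166 and 186.

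Within the gland coil, all called members were lower in the contractile outer layer than in the secretory inner layer. In myoepithelial against luminal cells 28 members were lower and 0 higher (32.6%, against 31.1% of all genes, of which 14.6% were lower and 16.5% higher). The median log2 difference of members was -0.47 and that of all genes 0.08. The calls covered complex I (12 of 33), ATP synthase (7 of 17), complex IV (4 of 16), complex III (3 of 10), complex II (1 of 4) and the factors (1 of 6). Without myoepithelial array 1 or 2, 10 or 12 members passed, and without luminal array 2, 7 did. The summed signals of other cell types also differed between these layers: the fibroblast sums given above were higher in myoepithelial cells, immune genes summed to 4120 and 6039 there against 229 and 738 in luminal cells, and ionocyte genes to 2268 and 314 against 14858 and 16190. Their part in the difference was not tested. Calls on 6 members held whichever array was left out: Cox7a1, Ndufb7, Cox8a, Ndufa3, Uqcrfs1 and Atp5d, the last outside the rule for naming.

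Ndufb7, a membrane arm subunit of complex I, gave 10985 and 15671 in luminal cells, 7640 and 6754 in duct suprabasal, 6032 and 4774 in myoepithelial and 5515 and 6186 in duct basal cells, and 6108 and 5380 in epidermis. Luminal cells alone stood apart, by a log2 difference of -1.29 from myoepithelial cells (SE 0.22, adjusted p = 0.00269). Cox8a, the common isoform beside Cox8b, had the same shape with 8252 and 10916 in luminal and 4274 to 5867 on all other arrays (-1.08, SE 0.21, adjusted p = 0.00436). Ndufa3 read 9425 and 11249 in luminal and 5148 and 5396 in myoepithelial cells (-0.97, SE 0.16, adjusted p = 0.00260), with epidermis in between at 8480 and 8674. Uqcrfs1 was 4582 and 4706 in luminal and 2445 and 2405 in myoepithelial cells (-0.93, SE 0.16, adjusted p = 0.00256). Cox7a1 fell by 2.58 (SE 0.44, adjusted p = 0.00258). The assembly factor gene Ndufaf3 was 1363 and 1430 in luminal cells and 569 to 979 on the 8 other arrays (-0.57, SE 0.18, adjusted p = 0.0363), and it lost the call against myoepithelial cells without any 1 of the myoepithelial, luminal or epidermis arrays (adjusted p of up to 0.176). In epidermis Ndufaf3 was below the sweat mean by -0.67 (SE 0.14, adjusted p = 0.00325) whichever array was left out, but not after centring arrays on their medians.

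Luminal cells were also compared with duct suprabasal cells, the inner layer of the duct. There 8 members were higher and 0 lower (9.30%, against 15.2% of all genes, of which 4.95% were higher and 10.2% lower): Ndufb3, Ndufs4, Cox8a, Ndufb7, Ndufaf3, Ndufa3, Uqcrfs1 and Ndufab1. Ndufs4, an accessory subunit needed for assembly of the peripheral arm, gave 2452 and 3005 in luminal and 1536 and 1418 in duct suprabasal cells (0.87, SE 0.19, adjusted p = 0.0165). Ndufb3 read 6443 and 9702 in luminal and 3946 and 4448 in duct suprabasal cells (0.91, SE 0.25, adjusted p = 0.0416). None of the 8 calls held in all 10 fits that left out 1 array: 1 member passed without duct suprabasal array 2, 1 and 0 without luminal arrays 1 and 2, and 5 without either epidermis array.

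The outer layers of gland and duct differed in the same direction as the layers of the gland. In myoepithelial against duct basal cells 15 members were lower and 0 higher (17.4%, against 24.3% of all genes, of which 12.3% were lower and 12% higher). Among the 15 is Cox6b2, which passed the filter on low values only through duct basal cells. The median was -0.34 for members and 0.02 for all genes. ATP synthase gave 5 of the 15: Atp5o, a stalk subunit, was 3551 and 3814 in myoepithelial and 7144 and 9134 in duct basal cells (-1.13, SE 0.21, adjusted p = 0.00511), and Atp5g1 fell by 1.04 (SE 0.19, adjusted p = 0.00439). Sdhd, at 816 and 748 against 1519 and 1480, differed by -0.93 (SE 0.18, adjusted p = 0.00539). These 3 calls held whichever array was left out, and that of Sdhd ended when its probe sets were averaged. Cycs (-0.86) lost its call without either duct basal array or myoepithelial array 1, with an adjusted p of up to 0.0953, and Cox5a (-0.76) without duct basal array 2, at 0.0678. Over all members 8 and 4 passed without duct basal arrays 1 and 2, and 5 and 9 without myoepithelial arrays 1 and 2. The immune cell genes listed summed to 4120 and 6039 in myoepithelial cells and to no more than 1388 elsewhere, and their part in these differences was not tested.

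Few members passed between the layers of the duct in the fit described here. Some alternatives reported further below, among them the replicate number as a block, called more. In duct basal against duct suprabasal cells 4 members passed (4.65%, against 16.4% of all genes, of which 7.98% were higher and 8.39% lower). Beside Cox6b2, which passed the filter only through duct basal cells, these were Ndufb1 (1.09, SE 0.32, adjusted p = 0.0450) and the supercomplex factor gene Cox7a2l (0.90, SE 0.25, adjusted p = 0.0373) higher and Cox7a1 (-1.74, SE 0.44, adjusted p = 0.0278) lower. Cox7a2l gave 6231 and 7028 in duct basal cells, 6486 and 6493 in epidermis, and 2666 to 4705 on the 6 other arrays, so duct basal cells and epidermis shared its high level. No member of complex II, complex III or ATP synthase passed. The count was 0 without either duct basal array and without duct suprabasal array 1, 1 without either luminal array, and 2 without either epidermis array. The fibroblast and endothelial sums given above differ between the duct suprabasal arrays, and their part here was not tested. The median was 0.22 for members and -0.02 for all genes, and 0.10 and 0.09 with quantile normalization. That normalization gave 3 members higher and 0 lower. A difference that missed the threshold is not shown to be absent.

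Duct basal cells and epidermis, which duct basal cells adjoin where the duct opens, were compared last. Here 18 members passed (20.9%, against 34% of all genes), 16 lower in duct basal cells (11% of all genes) and 2 higher (23%). The 2 higher were Sdha and Cox6b2, of which Cox6b2 passed the filter on low values only through duct basal cells. With arrays centred on their medians 35 were lower and 1 higher. Centring raises every gene of epidermis against duct basal cells, and the share of all genes under it is not given here. Complex I accounted for 11 of the 16, with Ndufc1 (-1.07, SE 0.22, adjusted p = 0.00569) and Ndufa9 (-1.03, SE 0.17, adjusted p = 0.00195) leading. Atp5md (-1.23, SE 0.26, adjusted p = 0.00648) led ATP synthase. Calls on these 3 genes held whichever array was left out. Cyc1 (-0.87, adjusted p = 0.00664) reached 0.0555 when 1 array was left out. Sdha (0.51, adjusted p = 0.0454) kept its call in 2 of 10 such fits. The count was 5 without duct basal array 1 and 8 and 4 without epidermis arrays 1 and 2.

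**Figure D5:**
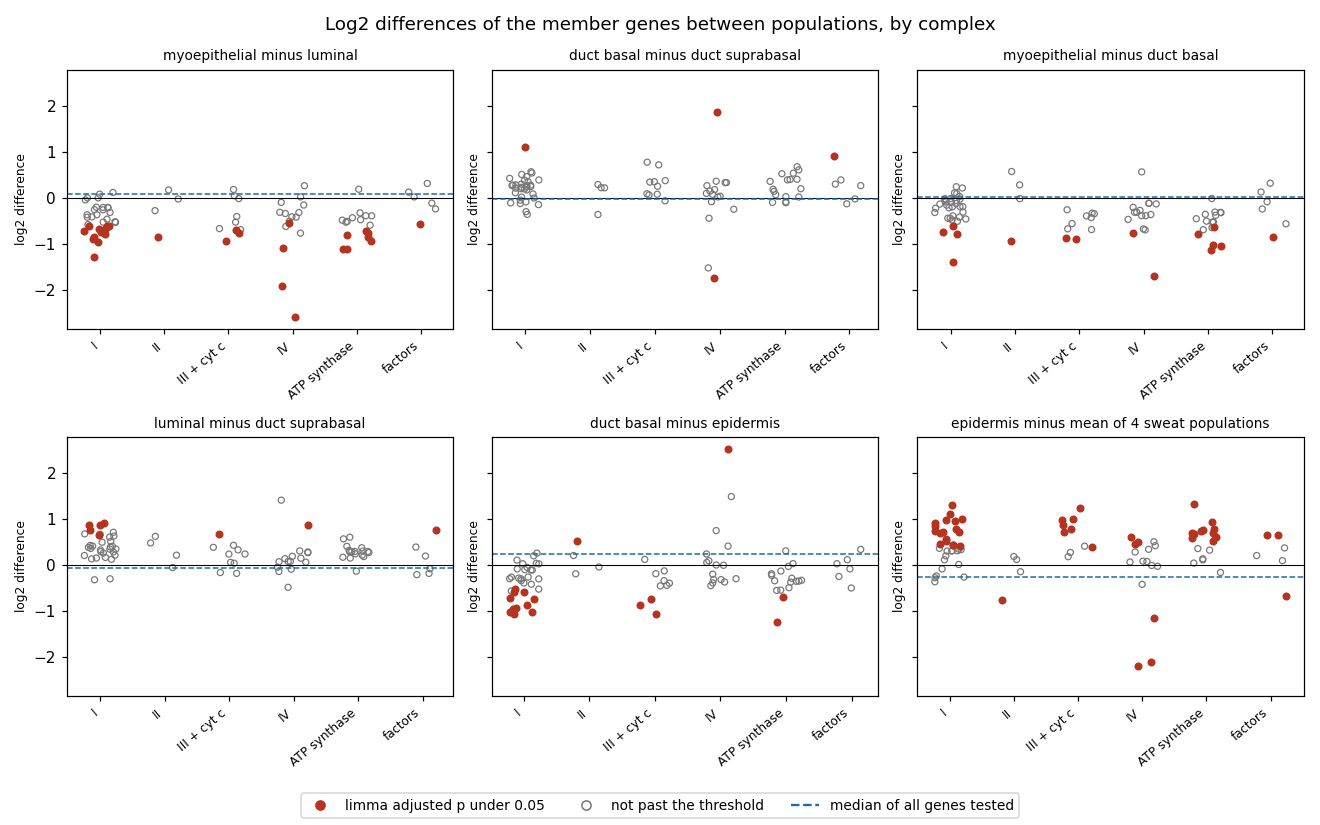
Log2 difference of each member in 6 comparisons, by complex, with filled points for limma adjusted p under 0.05 and a dashed line at the median of all genes tested. Called members lie below 0 in myoepithelial against luminal cells and mostly above 0 in epidermis against the sweat populations, apart from Sdha, Ndufaf3 and 3 alternative isoforms of complex IV.

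The layer difference of the gland was set against that of the duct, as (myoepithelial minus luminal) minus (duct basal minus duct suprabasal). It was negative for 13 members and positive for 0 at the threshold (15.1%, against 16% of all genes, of which 5.95% were negative and 10% positive), with a median of -0.66 for members and 0.05 for all genes. ATP synthase gave 5 of the 13, led by Atp5mpl (-1.64, SE 0.36, adjusted p = 0.0172). Ndufa3 (-1.17, SE 0.23, adjusted p = 0.0117) was the only call that held whichever array was left out. Without duct basal array 2 the count was 1, and it was 8 and 5 without myoepithelial arrays 1 and 2, 6 and 3 without luminal arrays 1 and 2, and 8 without either epidermis array.

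The remaining pairs, for which leaving out arrays was not run, share arrays with the comparisons above. In myoepithelial cells against epidermis 47 members were lower and 3 higher (58.1%), while 51.6% of all genes passed, 19.9% lower and 31.7% higher. In duct suprabasal cells against epidermis 40 were lower and 3 higher, while 46% of all genes passed, 16.7% lower and 29.4% higher. In luminal cells against epidermis 12 were lower and 8 higher (23.3%), while 45.3% of all genes passed, 19.2% lower and 26.1% higher. In luminal against duct basal cells 12 were higher and 4, Cox6b2 among them, lower (18.6%), against 35.4% of all genes, 16.3% up and 19.2% down. In myoepithelial against duct suprabasal cells 3 were lower and 1, Sdhc, was higher (4.65%), while 17.4% of all genes passed, 9.26% lower and 8.15% higher.

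Other mitochondrial gene lists are set beside the background of all genes tested, of which 19.2% were higher and 33.4% lower in epidermis, and 14.6% lower and 16.5% higher in myoepithelial than in luminal cells. Of 74 mitochondrial ribosome genes, which make the proteins encoded in mitochondrial DNA, 53 were higher and 2 lower in epidermis than in the sweat populations (median 0.77), and 16 were lower and 2 higher in myoepithelial than in luminal cells. Of 21 genes for import of proteins into mitochondria, 14 were higher and 0 lower in epidermis (median 0.82), and 7 were lower and 0 higher in myoepithelial than in luminal cells. Of 17 genes of the citric acid cycle and pyruvate dehydrogenase, 1 was higher and 6 lower in epidermis (median 0.01), the lower share being near the background. Of 20 assembly factors of complexes III, IV and V, 5 were higher and 4 lower in epidermis, and 5 were lower and 0 higher in myoepithelial than in luminal cells, among them Cox17, a copper chaperone for complex IV, at 6640 and 7914 in luminal and 3965 and 3114 in myoepithelial cells (-1.04, SE 0.20, adjusted p = 0.00438). For Cox17 this call ended when its probe sets were averaged.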

How the data were processed

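Total RNA of 5 sorted populations was hybridised to 10 one-colour Affymetrix arrays, 2 per population. The values deposited by the authors are probe set signal intensities from MAS5, per the submitters' processing notes, on a linear scale with a trimmed mean of 500 on every array. The MAS5 version is not given in the sources used here. Signals were converted to log2 after adding 12, near the 20th percentile of all values, which shrinks differences of dim genes, with no further normalization. Of 22690 probe sets, 20380 had 1 gene symbol. Members on a probe set with several symbols (Ndufa11, Ndufb4 and Ndufs6) were not analysed here. A gene was tested if above its array's 40th percentile on at least 2 arrays.

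All genes were fitted with limma 3.58.1 in R 4.3.3, using 1 model for the 10 arrays and variances moderated along a trend in mean signal. Benjamini-Hochberg adjustment ran over all 9310 genes, and 0.05 was the threshold. Contrasts with a population in common are not independent. Where a member has several probe sets, 12 of 70 called results had another with the opposite sign, and 2 of those passed.

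Named members were Sdh genes, Cyc1, Cycs and paralogous subunits, then per complex, comparison and direction up to 2 called members with the largest difference and no overlap of arrays, the smallest F test p, and calls against their complex. The members and lists were chosen with earlier results of these data known. Alternatives were pseudocounts of 1 and 50, quantile normalization, median-centred arrays, no filter or one at the 60th percentile, the mean of all probe sets, no variance trend, only the arrays compared, the replicate number as a block, and leaving out arrays.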

Additional observations from a re-analysis of the deposited data

Results flagged for a closer look

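Whether the layers of the gland differ from each other otherwise than those of the duct was tested as an interaction in the limma fit. There 13 of 86 members passed (15.1%), a share near the 16% of all genes tested, of which 5.95% were negative and 10% positive. Of the 13, the rule named 11. All had a lower value, on the log2 scale, in the gland contrast (myoepithelial minus luminal) than in the duct contrast (duct basal minus duct suprabasal). For ATP synthase the interaction was -1.64 for Atp5mpl, -1.42 for Atp5o, -1.33 for Atp5g1, -1.26 for Atp5md and -1.15 for Atp5g2. For complex I it was -1.29 for Ndufb5 and -1.17 for Ndufa3, for complex II -1.14 for Sdhd, for complex III -1.0 for Uqcrfs1, and for complex IV -1.0 for Cox8a and -0.90 for Cox5a. Of these, the call on Ndufa3 held whichever array was left out, and the highest adjusted p of the 10 others in such fits ran from 0.0519 for Atp5g1 and Ndufb5 to 0.157 for Atp5g2. For Atp5g2 a second, dim probe set gave 2.06 and did not pass.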

How the results depend on the processing

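With 1 array left out, the number of members called ranged from 30 to 51 in the F test, 7 to 32 in myoepithelial against luminal, 0 to 5 between the duct layers, 4 to 18 in myoepithelial against duct basal, 0 to 9 in luminal against duct suprabasal, 4 to 21 in duct basal against epidermis, 20 to 47 in epidermis against the sweat populations, and 1 to 17 in the interaction of the layer differences. The counts here are of members only, and shares of all genes under the same settings are not given. Duct basal against epidermis gave 11 members with quantile normalization, 36 with median-centred arrays and 11 with no variance trend. The interaction gave 20 with median-centred arrays, 8 with no variance trend and 8 with only the arrays compared. The duct layers gave 2 with no variance trend and 0 with only the 4 arrays compared, and luminal against duct suprabasal 4 and 0. With duct suprabasal array 2 and myoepithelial array 1 both left out, the duct layers gave 7, luminal against duct suprabasal 1, and myoepithelial against luminal 14. With quantile normalization Cox5b (-0.29), Cox6a1 (-0.37) and Cox6b1 (-0.02) changed sign in epidermis against the sweat populations. With the mean of all probe sets Ndufs4 changed sign there (-0.05), and so did Atp5g2 in myoepithelial against duct basal (0.13) and in the interaction (0.45). The cause was not tested. Only the arrays compared was not run for the F test and for epidermis against the sweat populations, which use all 10 arrays.

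The populations share replicate numbers 1 and 2, and same-numbered deviations correlated at 0.12 to 0.36 between the sweat populations and at 0.03 to 0.09 between these and epidermis. The labels describe no pairing, and there are only 2 numbers, so the numbers were not taken to pair samples. With the replicate block, 10 members passed between the duct layers, 15 in luminal against duct suprabasal, 26 in the interaction, 35 in myoepithelial against luminal, 22 in myoepithelial against duct basal, 24 in duct basal against epidermis and 50 in epidermis against the sweat populations. The share of all genes that passed with the block is not given here, so these counts have no background to be set against. Dim members (Cox4i2, Cox6a2, Cox6b2, Cox7a1, Cox7c and Cox8b) fell under the 40th percentile on at least 1 array, which limits their ratios.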

Other observations

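Among all genes tested, 33.4% were lower and 19.2% higher in epidermis than in the sweat populations. In myoepithelial against luminal cells 16.5% were higher and 14.6% lower. Of 13 regulators of mitochondrial biogenesis 2 were lower in epidermis than in the sweat populations and 0 higher (median -0.09), and 3 were higher and 1 lower in myoepithelial than in luminal cells. The lower ones in epidermis were the related coactivators Ppargc1a and Ppargc1b. Ppargc1a, a coactivator that drives transcription of respiratory genes, gave 1069 and 315 in duct suprabasal, 511 and 465 in luminal, 197 and 139 in myoepithelial and 32.8 and 66.9 in duct basal cells, and 6.8 and 22.7 in epidermis. Both epidermis arrays lay below the 8 others, with a log2 difference of -3.21 between epidermis and the mean of the sweat populations. Between duct basal and duct suprabasal cells the difference was -3.32 (SE 0.56, limma adjusted p = 0.00586). Its relative Ppargc1b was 337 and 299 in duct basal, 286 and 268 in myoepithelial, 241 and 116 in duct suprabasal and 49.3 and 79.6 in luminal cells, and 6.9 and 17.9 in epidermis (-2.99). Both genes passed the filter on low values through sweat arrays only. Their differences from epidermis are therefore given without a test, though both are counted above among the lower calls. The epidermis values of both genes lay under the 40th percentile of their arrays, which was 33.6 and 36.1. On duct basal array 1 Ppargc1a was also under that array's 40th percentile, 52.5. Such dim values limit the size that can be read from these differences. Esrra, the nuclear receptor ERR alpha that works with these coactivators, was brightest in luminal cells, at 786 and 942, against 356 and 314 in myoepithelial cells (-1.33, SE 0.23, adjusted p = 0.00257).

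Of 7 genes for ADP, phosphate and uncoupling carriers and porins, 1 was higher and 1 lower in epidermis (19.2% and 33.4% of all genes tested). These were the ADP/ATP carriers Slc25a5 and Slc25a4. Slc25a4, the isoform of heart and muscle, was 11415 and 16009 in myoepithelial cells and 3387 to 6362 on the 8 other arrays, above luminal cells by 1.66 (SE 0.22, adjusted p = 0.000800). Slc25a5, the isoform of dividing cells, was 16470 and 16554 in epidermis, 6453 and 7875 in myoepithelial cells and 8174 to 11441 on the 6 others (epidermis against the sweat mean 0.86, SE 0.14, adjusted p = 0.000677). In the citric acid cycle list Pcx, the pyruvate carboxylase gene, was 1404 and 1278 in luminal cells and 143 to 462 on the 8 other arrays. Its difference between myoepithelial and luminal cells was -1.86 (SE 0.25, adjusted p = 0.00103). These calls on Slc25a4, Slc25a5 and Pcx held whichever array was left out.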
